A study of Mus musculus with 18 samples.

Results

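Naive CD4 T cells of mice that over-expressed miR-27 in their T cells were compared with those of mice that over-expressed miR-23, a microRNA made from the same precursor. The comparison rested on 6 of the 18 RNA-seq libraries of a mouse study of the miR-23/27/24 clusters, 3 of the genotype miR-27 Tg and 3 of miR-23 Tg. A gene entered where its RPKM (reads scaled by transcript length and by the mapped reads of the library) was 1 or more in at least 3 of these 6 libraries, which kept 10507 of the 23951 genes listed. The remaining genotypes of the study, with 3 libraries each, were wild type (WT), cluster Tg with all 3 microRNAs over-expressed, miR-24 Tg, and DKO with both clusters deleted in T cells. All mice were of the strain C57BL/6, and the sorted cells were CD4+CD25-CD62Lhi. The sources used here do not give the promoter that drives the transgenes, the age of the mice or the number of founder lines. No label says that each library came from its own mouse, and a p-value here rests on how far these libraries spread, which may in part be technical. In the header, 2 of the 3 miR-23 Tg columns share a name, so these are called columns 3 and 4 and the other miR-23 Tg replicate 1.

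MicroRNAs guide a silencing complex to messages that pair with the seed, bases 2 to 8 of the mature strand, mostly in the 3′ UTR, and lower the stability and translation of those messages. miR-23, miR-27 and miR-24 are cut from a single transcript, and mammals carry a paralogous pair of these clusters, called a and b. In T cells, miR-27 is known to restrain regulatory and helper T cell programmes, and miR-23 to protect T cells from necrosis through the mitochondrial protein cyclophilin D, encoded by Ppif.

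The mature strands are shown because the seeds decide which messages each microRNA can pair with, and capitals mark the seed. The letters are from RefSeq (GRCm38.p6), where miR-27a-3p lies at chr8:84208727-84208747, miR-23a-3p at chr8:84208563-84208583 and miR-24-3p at chr8:84208875-84208896, all on the plus strand. miR-27b-3p is from the second cluster at chr13:63300760-63300780.
miR-27a-3p: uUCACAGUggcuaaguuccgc
miR-27b-3p: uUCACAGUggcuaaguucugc
miR-23a-3p: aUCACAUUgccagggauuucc
miR-24-3p: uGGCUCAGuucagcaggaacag
The seeds of miR-23a and miR-27a differ in 1 base, U7G, counted from 1 at the 5′ end with the base of miR-23a first. Beyond the seed the strands differ at further positions, among them C10G and A12U. The pair of miR-27 strands shares its seed and differs at C19U. A 7-base match to the miR-27 seed reads ACTGTGA in a message, 1 to the miR-23 seed reads AATGTGA, and 1 to the miR-24 seed reads CTGAGCC.

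The hairpins of the first cluster checked the labels. Values are RPKM and, throughout, follow the order miR-23 Tg replicate 1, column 3 and column 4, then miR-27 Tg replicates 1, 2 and 3. Mir27a stood at 235, 170.1 and 155 in miR-23 Tg and at 216755, 234933 and 27980.5 in miR-27 Tg, and at 140 ± 49.7 in the WT libraries (mean ± SD, n = 3). Mir23a stood at 74236, 69232 and 64024 in miR-23 Tg and was listed at 0, 155.8 and 0 in miR-27 Tg. Each hairpin was thus high in all 3 libraries labelled for it and within or near the WT range, of 0 to 279.5 for Mir23a and 95.6 to 193.7 for Mir27a, in the other genotype, and miR-27 Tg replicate 3 had the lowest Mir27a of its genotype. Mir24-2, the hairpin of neither transgene, was at 139.8, 0 and 61.4 in miR-23 Tg and 35.2, 26.8 and 0 in miR-27 Tg, so the groups overlapped. Mir23b, Mir27b and Mir24-1, of the second cluster, were listed at 0 in all 18 libraries. These values come from TruSeq RNA libraries and do not measure the mature strand, and the sources used here do not say how reads shared between such loci were counted.

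**Figure D1:**
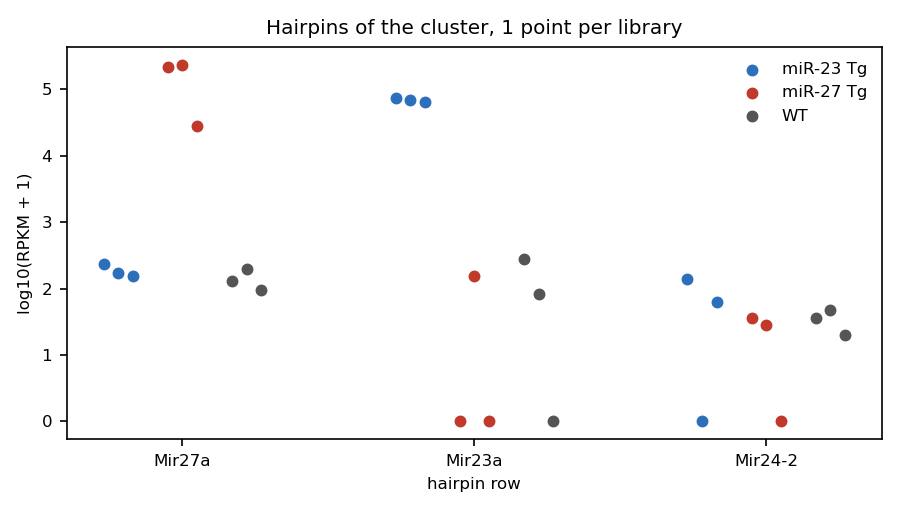
Level of 3 hairpins of the first cluster on a log10(RPKM + 1) axis, 1 point per library, for miR-23 Tg, miR-27 Tg and WT. Mir27a was between 27980 and 234933 RPKM in miR-27 Tg and Mir23a between 64024 and 74236 in miR-23 Tg, while Mir24-2 overlapped between the genotypes.

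Libraries differed in ways the genotypes do not explain. miR-27 Tg replicate 3 stood apart, with a score of 117.95 on the first principal component of the 18 libraries against -21.07 to 0.71 for all others except DKO replicate 3 (46.94). Its mean RPKM over ribosomal protein genes was 1839 against 448.7 to 639.1 in the other 5 libraries, its relative depth was 0.634 of that of WT replicate 1 against 0.981 to 1.28, and its correlation with the other miR-27 Tg libraries was 0.795 and 0.798 on log2(RPKM + 1) against 0.951 between those. Differences are therefore given in pairs, first with all 6 libraries and then without miR-27 Tg replicate 3. The second component set miR-23 Tg, WT and DKO (11.62 to 28.17) apart from miR-27 Tg, miR-24 Tg and cluster Tg (-36.61 to -4.67). The sources used here give no preparation dates, and a batch of this kind and the genotype cannot be told apart in this comparison. Columns 3 and 4 of miR-23 Tg correlated at 0.969 and had 0 identical values among 10102 genes. By Ddx3y, a Y-linked gene, miR-27 Tg replicate 2 (58.8 RPKM) differed from the other 5 libraries (at most 0.031). The sorted type was as labelled by its defining markers: in the 6 libraries Cd4 lay between 370.2 and 617.2 and Cd3e between 268.1 and 564.7 RPKM.

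The test was limma on log2(RPKM + 1) with all 18 libraries in the fit, and genes with a Benjamini-Hochberg adjusted p under 0.05 among the 10507 count as called. Differences are miR-27 Tg minus miR-23 Tg on that scale, which understates the change of low genes. With all 6 libraries, 1773 genes (16.9%) were called, 972 higher (9.25%) and 801 lower (7.62%) in miR-27 Tg. Without miR-27 Tg replicate 3, 1804 (17.2%) were called, 993 higher (9.45%) and 811 lower (7.72%). Of these, 1249 genes (11.9%) were called in the same direction both ways, 722 higher (6.87%) and 527 lower (5.02%), and 0 in opposite directions. A gene counts as higher or lower below only where it was called both ways. The 6.87% and 5.02% are thus the shares of all genes to set beside the counts of each list. A log2 difference of 1 or more without miR-27 Tg replicate 3 was found for 271 of the higher and 78 of the lower genes. The values of the 6 libraries did not overlap for 3786 genes (36%), a share far above that of the calls. With only these 6 libraries in the fit, limma called 127 genes (1.21%), of which 115 were among the 1249, and 2048 without miR-27 Tg replicate 3. The count with all 6 libraries was 946 without miR-23 Tg replicate 1, 1172 without column 3 and 1051 without column 4, while without miR-27 Tg replicate 3 the further loss of replicate 1 or 2, which leaves 1 miR-27 Tg library, gave 666 and 696. DKO replicate 3 bore on the spread too: with it left out of the fit, 3178 genes were called without miR-27 Tg replicate 3. Where a list's calls are followed below on leaving out a library, they are the members called with the libraries that remain, so they start from the number called with all libraries.

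**Figure D2:**
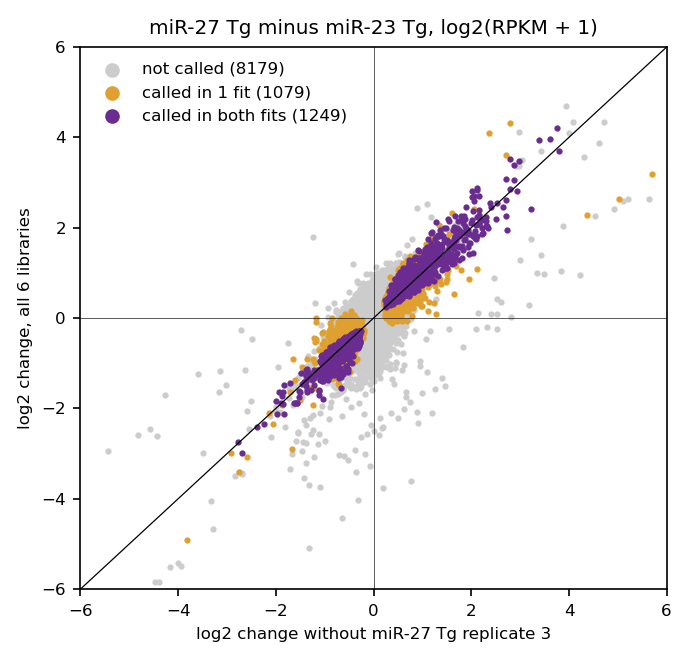
Log2 difference of each gene, miR-27 Tg minus miR-23 Tg, with all 6 libraries (vertical axis) against the same without miR-27 Tg replicate 3 (horizontal axis), with the line of equality. The 1249 genes called both ways lie along the line, and genes far from the line are mostly not called. In all, 12 genes fall outside the axes.

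Among genes called both ways with ranges that did not overlap, hairpins and a list of sex chromosome genes aside, the 12 with the largest positive and the 12 with the largest negative differences without miR-27 Tg replicate 3 were named. The positive 12 included Ifit3 and Mx1 of the interferon list, and S100a4, S100a6 and Ccl5 of the list of effector and memory T cell genes. Ifitm3, a membrane protein that blocks virus entry, was at 1.07, 0.697 and 1.06 RPKM in miR-23 Tg and 28.6, 23.05 and 20.8 in miR-27 Tg, a difference of 3.69 and 3.79 with all 6 libraries and without miR-27 Tg replicate 3 (SE 0.36 and 0.40, adjusted p = 2.15e-05 and 5.54e-05). The adjacent genes Tmem176b and Tmem176a, both of membrane proteins, were at 2.67, 3.296 and 3.23 and 1.29, 1.72 and 1.78 in miR-23 Tg, and at 50.02, 58.1 and 139 and 30.1, 31.6 and 64.3 in miR-27 Tg. In all 3 genes the libraries of the genotypes formed separate groups, far apart next to the spread within each. S100a6, a calcium-binding protein of activated and memory cells, was at 3.31, 4.605 and 3.501 against 73.2, 32.8 and 157 (3.95 and 3.39), and S100a4, of the same family, at 5.37, 9.67 and 9.83 against 88.5, 42.3 and 291 (3.53 and 2.79). The chemokine Ccl5 was at 1.45, 1.996 and 2.88 against 34.3, 13.3 and 64.1, with a difference of 3.39 and 2.88 (SE 0.58 and 0.59, adjusted p = 0.00173 and 0.005105). For these 3 genes miR-27 Tg replicate 3 was the highest library, and the other miR-27 Tg libraries stood above every miR-23 Tg library as well.

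The scavenger receptor Cd163l1, known from gamma-delta T cells, was at 0.0976, 0.106 and 0.0845 RPKM in miR-23 Tg and 4.93, 9.93 and 10.7 in miR-27 Tg, with a difference of 3.06 and 2.88 (SE 0.44 and 0.49, adjusted p = 0.000474 and 0.00165). Plac8 was at 0.403, 0.838 and 3.27 against 14.05, 19.4 and 47.99, and I830012O16Rik, a gene named by its clone identifier, at 0.987, 0.874 and 1.11 against 17.2, 11.6 and 11.1. The GTPase Mx1 was at 1.67, 0.8696 and 1.31 against 28.7, 13.98 and 3.01, and the chemokine receptor Ccr4 at 1.46, 0.998 and 0.8198 against 21.2, 7.57 and 1.67. In both, replicate 3 lay close to the highest miR-23 Tg library, and the difference grew without it, from 2.42 to 3.22 for Mx1 and from 1.94 to 2.73 for Ccr4. The antiviral Ifit3 was at 6.92, 5.27 and 6.25 against 60.7, 38.9 and 55.2, with a difference of 2.86 and 2.80 (SE 0.31 and 0.35, adjusted p = 6.01e-05 and 0.000192) and no overlap between the genotypes. Ccr4 was not called without miR-23 Tg replicate 1, column 3, column 4 or miR-27 Tg replicate 1 (adjusted p = 0.0608, 0.0703, 0.0817 and 0.0643).

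Of these 12 genes with negative differences, Tnfaip3 had the highest level. Tnfaip3 encodes A20, an enzyme that switches off NF-kB signalling, and was at 1107, 831 and 920.4 RPKM in miR-23 Tg and 155, 135 and 78.6 in miR-27 Tg, a difference of -2.99 and -2.70 (SE 0.77 and 0.86, adjusted p = 0.0175 and 0.0454). Every miR-27 Tg library lay far under every miR-23 Tg library, and miR-27 Tg replicate 3 was the lowest of all. This call depended on miR-23 Tg replicate 1, without which the adjusted p was 0.0625. Zbtb10, a zinc finger repressor listed in the literature as a miR-27 target, was at 22.2, 3.89 and 4.48 against 0.273, 0.208 and 0.345 (-2.74 and -2.78, adjusted p = 0.00595 and 0.0115), and miR-23 Tg replicate 1 was far above the other miR-23 Tg libraries. Ctla4, an inhibitory receptor of activated and regulatory T cells, was at 96.1, 76.8 and 78.4 against 28.5, 16.4 and 22.7 (-1.87 and -1.90, adjusted p = 0.0138 and 0.0248), and its adjusted p was 0.0536 without miR-23 Tg replicate 1.

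Tspan9, a tetraspanin, was at 9.87, 10.1 and 10.3 against 0.952, 1.305 and 0.9697, with a difference of -2.42 and -2.39 (SE 0.22 and 0.25, adjusted p = 1.50e-05 and 5.43e-05) and narrow ranges in both genotypes. The small GTPase Rhob was at 24.8, 21.6 and 20.4 against 4.35, 3.48 and 2.95 (-2.35 and -2.25, adjusted p = 0.00696 and 0.0175). The adhesion molecule Epcam was at 4.02, 3.94 and 4.37 against 0.193, 0.377 and 0.748 (-1.84 and -1.99, adjusted p = 3.56e-06 and 9.73e-07), with miR-23 Tg libraries close to each other. The transcription factor Klf9 was at 9.67, 3.97 and 4.499 against 0.998, 0.421 and 0.2498, the urokinase receptor Plaur at 20.4, 8.105 and 9.21 against 1.81, 2.87 and 5.07, and the chaperone cofactor Dnajb9 at 139, 90.8 and 91.2 against 30.1, 26.3 and 25.5. In all 3, miR-23 Tg replicate 1 was the highest library. The remaining members were the ubiquitin ligase Trim13 (-1.63 and -1.85), the protease Ctsw (-1.48 and -1.84) and 4930486L24Rik (-1.72 and -1.87), each with no overlap between the genotypes. Plaur was not called without miR-23 Tg replicate 1, column 3, column 4, miR-27 Tg replicate 1 or replicate 2 (adjusted p = 0.183, 0.0569, 0.07397, 0.0887 and 0.0648), Dnajb9 without miR-23 Tg replicate 1 or column 4 (adjusted p = 0.0932 and 0.0502) and Trim13 without miR-23 Tg replicate 1, column 3, column 4, miR-27 Tg replicate 1 or replicate 2 (adjusted p = 0.128, 0.0669, 0.0752, 0.0651 and 0.0625). Under the 14 other settings tried, the calls of Ifitm3, Tmem176b, Tmem176a, S100a6, I830012O16Rik, Cd163l1, Ifit3, Tspan9, Rhob and Epcam were kept in all, while those of Ccr4, Trim13 and Plaur were kept in 8, 6 and 5.

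**Figure D3:**
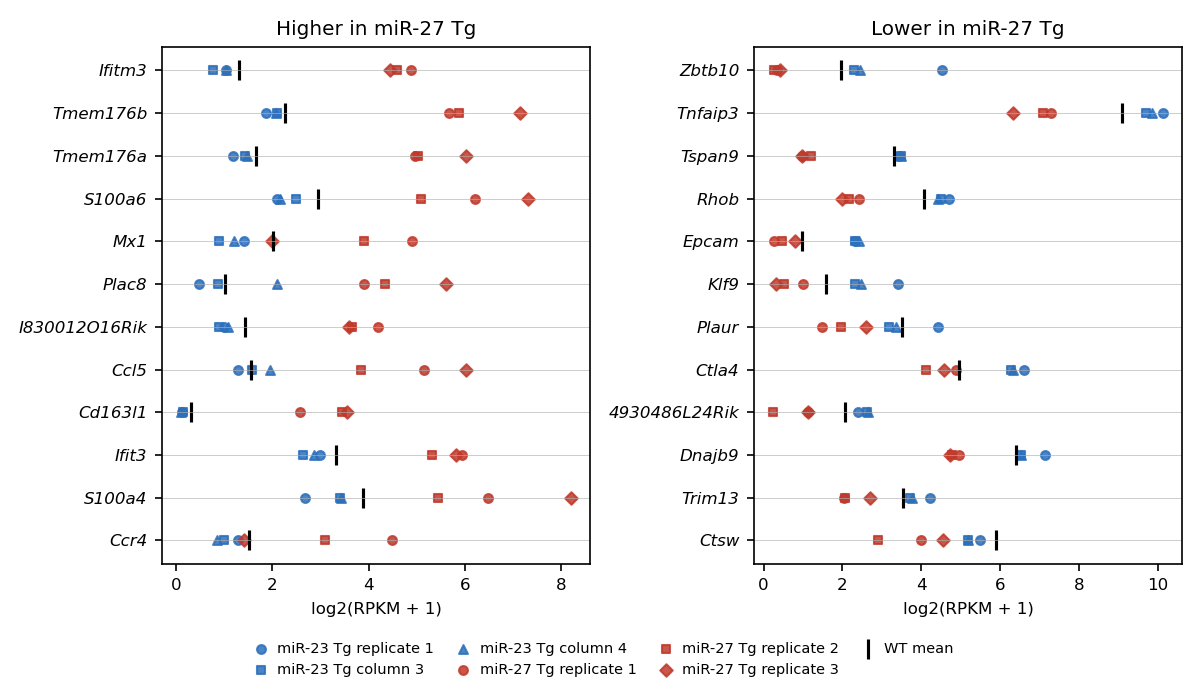
Log2(RPKM + 1) of the 12 genes with the largest positive (left) and the 12 with the largest negative (right) differences without miR-27 Tg replicate 3 among genes called both ways, hairpins aside, 1 point per library, with the WT mean as a black bar. In every gene the red miR-27 Tg points lie on 1 side of the blue miR-23 Tg points, and for Ctla4 and Epcam the WT mean lies by the miR-27 Tg points.

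The WT libraries give the level of unmodified cells, with the limit that the comparisons share libraries and that WT fell with miR-23 Tg on the second component. Against WT, limma called 5 genes (0.0476%) in miR-23 Tg and 897 (8.54%) in miR-27 Tg, or 1123 (10.7%) without replicate 3. The hairpin Mir23a itself was not called in miR-23 Tg against WT, at a difference of 11.2 (adjusted p = 0.173). A missing call there thus does not show that a gene was unchanged. Epcam was among the 5: it was at 0.947 ± 0.0685 in WT, with a difference of 1.39 for miR-23 Tg (adjusted p = 0.000569) and -0.45 for miR-27 Tg (adjusted p = 0.0521). Ctla4 was at 30.2 ± 11.3 in WT, which gave 1.51 for miR-23 Tg (adjusted p = 0.346) and -0.37 for miR-27 Tg (adjusted p = 0.605). Its WT mean lay just above the miR-27 Tg libraries and under every miR-23 Tg library. Tspan9 showed the reverse, with 8.898 ± 3.34 in WT, 0.22 for miR-23 Tg (adjusted p = 0.984) and -2.20 for miR-27 Tg (adjusted p = 4.72e-05). Ifit3 followed Tspan9, with 9.04 ± 2.39 in WT, -0.47 for miR-23 Tg (adjusted p = 0.833) and 2.40 for miR-27 Tg (adjusted p = 0.000397).

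Each library of the remaining genotypes was placed nearer to the miR-27 Tg or to the miR-23 Tg mean, gene by gene. For the 722 higher genes, the WT libraries were nearer to miR-27 Tg in 16.6% to 21.2% of genes and the DKO libraries in 11.2% to 36%, against 29.5% to 35.6% and 22.7% to 66.5% over all genes tested. The cluster Tg libraries, which over-express both microRNAs, were nearer to miR-27 Tg in 64.8% to 69.5%, against 39.9% to 48.1% over all genes tested, and the miR-24 Tg libraries in 31.4% to 57.9%, against 32.8% to 45.3%. For the 527 lower genes the shares were 23.1% to 34% in WT, 13.5% to 46.7% in DKO, 52% to 62% in cluster Tg and 22.8% to 43.5% in miR-24 Tg. All these shares use the miR-27 Tg mean with replicate 3. Without it, those of the higher genes were 21.1% to 25.8% in WT, 14.5% to 39.2% in DKO, 69.8% to 75.1% in cluster Tg and 35.3% to 60.4% in miR-24 Tg. Those of the lower genes were then 30.4% to 38.5%, 17.8% to 52.6%, 59.6% to 69.6% and 26.8% to 49.1%. These are descriptions of position, and cluster Tg and miR-24 Tg fell on the same side of the second component as miR-27 Tg.

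Genes of the type I interferon response were the list with the most higher members. Of 33 tested, 23 were higher in miR-27 Tg, against 6.87% of all genes tested, and 0 lower, with a median difference of 1.24 and 1.32, against 0.013 and -0.008 over all genes. Interferon-stimulated genes are switched on through a transcription factor complex that includes STAT2 and IRF9 and restrict viruses in many ways. Ifit1, which binds viral RNA, was at 10.1, 10.6 and 12.1 RPKM in miR-23 Tg and 75.1, 60.8 and 71.5 in miR-27 Tg (2.55 and 2.53, SE 0.24 and 0.27, adjusted p = 1.72e-05 and 5.92e-05). The oligoadenylate synthetase Oas2, which activates an RNA-degrading enzyme, was at 24.9, 16.05 and 19.3 against 119.6, 116 and 61.3 (2.2 and 2.51, adjusted p = 3.92e-05 and 3.71e-06). Every miR-27 Tg library was above every miR-23 Tg library for both genes. The ubiquitin-like modifier Isg15 was at 29.4, 19.4 and 22.5 against 115, 101 and 173, with replicate 3 the highest (2.38 and 2.15). Usp18, which takes that modifier off, was at 18.7, 17.5 and 21.5 against 93.7, 63.03 and 41.01, with replicate 3 the lowest of its genotype (1.65 and 1.95).

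Among the regulators of the interferon response, Stat2 was at 32.7, 23.8 and 24.5 RPKM against 81.9, 72.7 and 33.5 (1.10 and 1.49, adjusted p = 0.00933 and 4.39e-05) and Irf7, which amplifies interferon production, at 77.3, 61.99 and 68.8 against 193, 151 and 154 (1.24 and 1.29, adjusted p = 0.00104 and 0.00158). Irf9 was higher by less, at 97.4, 76.8 and 78.5 against 116, 113 and 100 (0.38 and 0.44, adjusted p = 0.0475 and 0.0252). Replicate 3 was the lowest miR-27 Tg library for Stat2 and Irf9 and lay between the others for Irf7. Oas3, a larger synthetase, was at 10.6, 9.202 and 10.03 against 47.05, 40.8 and 12.2, so that replicate 3 stood just above miR-23 Tg replicate 1 and the difference moved from 1.45 to 2.04 without it. The 10 members not called both ways included Ifit2 (0.56 and 1.01, adjusted p = 0.159 and 0.000192) and Irgm1 (0.50 and 0.81, adjusted p = 0.159 and 0.0132), called only without replicate 3. Irf9 was not called without miR-23 Tg column 3, column 4, miR-27 Tg replicate 1 or replicate 2 (adjusted p = 0.1504, 0.147, 0.0833 and 0.0746). In WT, Ifit1, Oas2 and Isg15 stood at 14.1 ± 2.59, 26.7 ± 1.89 and 35.4 ± 3.11, near the miR-23 Tg values, and in cluster Tg at 44.7 ± 4.35, 53.2 ± 8.41 and 69.1 ± 7.03. DKO, which lacks both clusters, also had means above WT for these genes, at 26.6 ± 9.63, 44.9 ± 7.42 and 66.4 ± 39.0. The miR-24 Tg means were 19.7 ± 6.81, 18.7 ± 2.39 and 34.5 ± 12.9.

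Promoters of the interferon list are shown because the members moved together. The core of the interferon-stimulated response element, a pair of GAAA copies with any 2 bases between them, was sought on both strands from 250 bases before to 50 after each RefSeq gene start (GRCm38.p6). No other motif was searched. It was in 16 of the 25 list members with a promoter in that table (64%), in 10 of 16 higher members (62.5%), and in 3.99% of all 27025 promoters. Of the promoters of all higher genes 7.98% held it, of lower genes 2.73%, and of all genes tested 3.78%. Windows of 30 bases on the gene's strand are printed with the motif, or its reverse complement, in capitals, for Ifit1 (chr19:34640775-34640804), Ifit3 (chr19:34583363-34583392), Isg15 (chr4:156200865-156200894, minus strand), Oas3 (chr5:120777715-120777744, minus strand) and Stat2 (chr10:128270266-128270295).
Ifit1: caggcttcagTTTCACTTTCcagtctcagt
Ifit3: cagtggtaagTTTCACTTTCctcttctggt
Isg15: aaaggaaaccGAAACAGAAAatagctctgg
Oas3: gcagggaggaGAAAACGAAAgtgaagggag
Stat2: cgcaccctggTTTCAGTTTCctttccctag
Ifit1 and Ifit3 hold the motif 2 times each and Isg15 3 times with overlap. The match is a description of letters and was not measured as a bound site.

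Genes of effector and memory T cells were the next list by count. Of 28 tested, 15 were higher and 2 lower in miR-27 Tg, against 6.87% and 5.02% of all genes. The list's median was 1.28 and 0.98. The summed RPKM of the list was 1275, 1433 and 1364 in miR-23 Tg and 2137, 1827 and 5396 in miR-27 Tg. It was 2026 to 2695 in miR-24 Tg and 2513 to 3050 in cluster Tg, against 1433 to 1622 in WT and 1168 to 1860 in DKO. A high sum was thus not particular to miR-27 Tg. Cxcr3, a chemokine receptor of Th1 and memory cells, was at 1.102, 2.15 and 1.76 RPKM in miR-23 Tg and 17.8, 7.89 and 6.53 in miR-27 Tg (2.04 and 2.30, SE 0.40 and 0.43, adjusted p = 0.00415 and 0.002904). The inflammatory chemokine receptor Ccr2 was at 0.082, 0.244 and 0.266 against 7.48, 1.85 and 2.05 (1.81 and 2.04, adjusted p = 0.0158 and 0.0147), and the integrin chain Itgb1 at 18.7, 21.6 and 20 against 108, 50.9 and 37.02 (1.51 and 1.84, adjusted p = 0.00835 and 0.00211). In all 3, replicate 1 was the highest miR-27 Tg library and the ranges did not overlap. The sugar-binding Lgals1 was at 32.5, 43.8 and 36.6 against 111, 106 and 444 (2.19 and 1.51, adjusted p = 0.00342 and 0.000957), here with replicate 3 the highest. The granule proteases Gzma and Gzmk were also higher, Gzma at 0.353, 0.357 and 0.582 against 2.13, 3.22 and 11.9 (1.96 and 1.35, adjusted p = 0.0147 and 0.04004) and Gzmk at 1.28, 1.23 and 0.867 against 6.18, 3.13 and 5.43 (1.44 and 1.36, adjusted p = 0.00339 and 0.00911). The lower members were Prf1 and Fasl: the pore-former Prf1 was at 9.93, 15.7 and 16.9 against 3.93, 4.04 and 1.65 (-1.88 and -1.57, adjusted p = 0.000212 and 0.000151) and the death ligand Fasl at 7.31, 10.2 and 10.5 against 3.48, 2.41 and 2.02 (-1.51 and -1.39, adjusted p = 3.92e-05 and 9.60e-05). In miR-24 Tg, Cxcr3, Ccr2 and Itgb1 were also above their WT means, at 16.4 ± 8.55, 1.97 ± 1.84 and 77.8 ± 31.5. The lower members Prf1 and Fasl were not low there, at 26.6 ± 5.63 and 9.2 ± 0.36. Gzmb, Cx3cr1 and Itgae stayed under 1 RPKM in all 6 libraries. The list's calls went from 19 to 12 without miR-23 Tg replicate 1. Ccr2 was not called without miR-23 Tg replicate 1 (adjusted p = 0.0573) and Gzma without miR-23 Tg replicate 1 (adjusted p = 0.0511).

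Among helper lineage lists, Th1 genes had 4 higher and 1 lower of 10, Th2 2 and 0 of 10, Tfh 2 and 0 of 12, Treg 4 and 1 of 15, and Th17 0 and 0 of 6. Over all genes the shares were 6.87% higher and 5.02% lower. For the Th17 list, limma also gave 0 genes at an unadjusted p under 0.05 either way, and Il17a and Il17f stayed under 1 RPKM in all 6 libraries. The Th1 regulator Tbx21 was at 0.608, 0.337 and 0.468 RPKM against 3.88, 1.49 and 2.07 (1.19 and 1.25, adjusted p = 0.00743 and 0.0113) and the cytokine Tnf at 10.04, 7.95 and 7.79 against 48.6, 22.97 and 25.8 (1.73 and 1.85, adjusted p = 0.000665 and 0.000835). The lower Th1 member was the interferon-gamma receptor chain Ifngr1, at 96.5, 74.6 and 81.6 against 51.2, 47.1 and 65.04 (-0.62 and -0.76, adjusted p = 0.0187 and 0.00596). Maf, a transcription factor on both the Th2 and Tfh lists, was at 4.98, 2.84 and 2.58 against 14.9, 9.49 and 6.89 (1.33 and 1.57, adjusted p = 0.0112 and 0.00586), and the inhibitory receptor Pdcd1 at 1.08, 1.89 and 2.04 against 13.7, 9.303 and 10.1 (2.18 and 2.22, adjusted p = 0.000212 and 0.000401). Gata3, the Th2 master regulator and a reported miR-27 target, was not called: it was at 36.1, 27.6 and 27.8 against 41.7, 28.8 and 49.6, with 0.36 and 0.19, adjusted p = 0.276 and 0.642, and overlapped between the genotypes. Single libraries moved the number of calls in these short lists, for Th1 from 5 to 3 without miR-23 Tg replicate 1, for Th2 from 3 to 1 without miR-23 Tg replicate 1, 1 without column 3 and 1 without column 4, and for Tfh from 4 to 2 without miR-23 Tg column 3 and 1 without column 4. Maf was not called without miR-23 Tg column 4 (adjusted p = 0.0501) and Ifngr1 without miR-23 Tg replicate 1 (adjusted p = 0.0871).

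Regulatory T cell genes split. Foxp3, the master regulator of these cells, was at 1.397, 1.84 and 1.601 RPKM against 6.14, 6.41 and 5.19 (1.40 and 1.48, SE 0.29 and 0.33, adjusted p = 0.00606 and 0.00874), Ikzf2 at 1.25, 1.4998 and 1.64 against 10.7, 5.39 and 2.13 (1.32 and 1.81, adjusted p = 0.0355 and 0.003101), and the co-receptor Nrp1, also on the naive list, at 2.19, 2.13 and 1.98 against 27.2, 12.3 and 12.4 (2.47 and 2.64, adjusted p = 9.58e-05 and 0.000101). Ebi3, a subunit of interleukin-35, was the other higher member (1.00 and 1.03). All 4 were above every miR-23 Tg library in every miR-27 Tg library, whereas Ctla4 went the other way. The sort took CD25- cells, and in bulk RNA a larger share of Foxp3-positive cells and more Foxp3 RNA per cell cannot be told apart. The same holds for every gene named here. The Treg calls went from 6 to 3 without miR-23 Tg replicate 1. Ikzf2 was not called without miR-23 Tg replicate 1, column 3, column 4, miR-27 Tg replicate 1 or replicate 2 (adjusted p = 0.1097, 0.07798, 0.07404, 0.087003 and 0.0555).

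Of 24 genes of the naive state, 3 were higher (Igfbp4, Nrp1 and Slfn2) and 1 lower (Btg1), against 6.87% and 5.02% of all genes, with a median of -0.16 and -0.06. Igfbp4, which binds insulin-like growth factors, was at 334, 251 and 217 RPKM against 466, 726 and 1024 (1.41 and 1.14, adjusted p = 0.00605 and 0.0161), with 688 ± 213 in WT. Slfn2, needed for T cell quiescence, was at 188, 211 and 218 against 508, 511 and 1045 (1.65 and 1.31, adjusted p = 0.00273 and 0.005105), and the anti-proliferative Btg1 at 375, 250.3 and 254 against 162, 153 and 195 (-0.76 and -0.87, adjusted p = 0.0302 and 0.02301). For Igfbp4 and Slfn2, replicate 3 was the highest library. The homing receptor Ccr7 was at 532, 312 and 295 against 186, 213 and 429, so replicate 3 lay within the miR-23 Tg range, and its difference was -0.51 and -0.88, adjusted p = 0.233 and 0.0277. The number called changed, with miR-27 Tg replicate 3 already left out, from 7 to 4 without miR-23 Tg replicate 1, 3 without miR-27 Tg replicate 1 and 2 without replicate 2. Btg1 was not called without miR-23 Tg replicate 1, miR-27 Tg replicate 1 or replicate 2 (adjusted p = 0.138, 0.0527 and 0.0586).

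Immediate early genes, which T cell receptor signals switch on within minutes to hours, had a median of -0.66 both ways. Of 29, 4 were lower (Cd69, Dusp6, Rgs1 and Tnfaip3) and 1 higher (Egr3), and the ranges did not overlap for 14 members lower in miR-27 Tg and 2 higher, against 17.7% and 18.4% of all genes. The early activation marker Cd69 was at 479.6, 448 and 494 RPKM against 171, 169.7 and 172 (-1.46 and -1.47, SE 0.34 and 0.39, adjusted p = 0.0104 and 0.0195), with 202 ± 27.9 in WT, so WT lay nearer to miR-27 Tg. Rgs1, which damps chemokine receptor signals, was at 58.9, 41.8 and 44.01 against 22.7, 10.3 and 7.59 (-1.88 and -1.58, adjusted p = 0.00512 and 0.0155) and the phosphatase Dusp6 at 50.03, 53.1 and 57.8 against 37.3, 30.2 and 36.01 (-0.63 and -0.66, adjusted p = 0.0292 and 0.0353). Egr3 was at 8.77, 8.03 and 8.31 against 14.5, 14.5 and 11.5 (0.62 and 0.73, adjusted p = 0.0121 and 0.00604). The NF-kB inhibitor Nfkbia was at 900.5, 551 and 564 against 381, 261 and 301 and was called only with all libraries (-1.07 and -1.05, adjusted p = 0.0412 and 0.0698). Among these, miR-23 Tg replicate 1 was the highest of the 6 libraries for Nfkbia, Rgs1 and Tnfaip3, but not for Cd69 or Dusp6. Dusp6 was not called without miR-23 Tg replicate 1, column 3, column 4 or miR-27 Tg replicate 2 (adjusted p = 0.0584, 0.0679, 0.0944 and 0.0639). The count of called members went, with miR-27 Tg replicate 3 already left out, from 5 to 2 without miR-23 Tg replicate 1, 3 without column 3, 3 without column 4, 1 without miR-27 Tg replicate 1 and 0 without replicate 2.

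Of 36 genes of the T cell receptor complex and its proximal signalling, 3 were higher and 2 lower, near the 6.87% and 5.02% of all genes. Cblb, a ubiquitin ligase that raises the activation threshold, was at 48.9, 49.4 and 44.3 RPKM against 23.1, 21.2 and 13.4 (-1.30 and -1.07, adjusted p = 0.001004 and 0.00175), and the adaptor Bcl10 at 95.3, 55.5 and 57.3 against 36.2, 35.3 and 45.6 (-0.78 and -0.89, adjusted p = 0.0276 and 0.0207). Of the higher members, the surface receptor Cd5 was at 221, 229 and 232 against 357, 336 and 432 (0.71 and 0.61, adjusted p = 0.00174 and 0.00171), the adaptor Sla at 62.9, 70.8 and 80.2 against 105, 98.3 and 103 (0.51 and 0.51, adjusted p = 0.0193 and 0.0277), and its relative Sla2 showed 0.60 and 0.40. The list's median was 0.13 and 0.16, against 0.013 and -0.008 over all genes. The ranges did not overlap for 14 members higher in miR-27 Tg and 9 lower, against 18.4% and 17.7% of all genes. A single library counted for much here, since the calls went from 11 to 2 without miR-23 Tg replicate 1, 3 without column 3 and 5 without column 4. Bcl10 was not called without miR-23 Tg replicate 1, miR-27 Tg replicate 1 or replicate 2 (adjusted p = 0.129, 0.0523 and 0.0552), Sla without miR-23 Tg replicate 1 or column 3 (adjusted p = 0.0886 and 0.05299) and Sla2 without miR-23 Tg replicate 1 or column 3 (adjusted p = 0.0757 and 0.05299).

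TGF-beta signalling had 4 lower and 0 higher members of 17, against 5.02% and 6.87% of all genes. The list's median was -0.87 and -0.47. The type I receptor Tgfbr1 was at 15.8, 14.6 and 15.1 RPKM against 8.56, 9.74 and 5.24 (-0.90 and -0.67, SE 0.19 and 0.15, adjusted p = 0.00535 and 0.00892), the co-receptor Tgfbr3 at 35.8, 32.1 and 30.4 against 20.5, 20.7 and 12.6 (-0.87 and -0.64, adjusted p = 0.00888 and 0.0209) and the signal transducer Smad2 at 11.4, 10.1 and 10.6 against 7.77, 7.41 and 5.17 (-0.60 and -0.44, adjusted p = 0.00444 and 0.003504). Replicate 3 was the lowest library for all 3, and the other miR-27 Tg libraries were also under every miR-23 Tg library. Skil, a repressor of Smad proteins, was at 89.3, 37.6 and 40.4 against 23.98, 24.6 and 11.6 (-1.39 and -1.05, adjusted p = 0.00791 and 0.0217), with miR-23 Tg replicate 1 far above the other miR-23 Tg libraries. The inhibitory Smad7 was called only with all libraries (-0.87 and -0.82, adjusted p = 0.0312 and 0.0621). The list's calls changed from 7 to 4 without miR-23 Tg replicate 1 and 4 without column 4.

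Of 35 cytokine receptor and JAK-STAT genes, 5 were higher and 2 lower, against 6.87% and 5.02% of all genes. The interleukin-10 receptor chain Il10ra was at 8.32, 9.33 and 9.44 RPKM against 32.3, 28.6 and 37.7 (1.75 and 1.65, SE 0.16 and 0.17, adjusted p = 1.50e-05 and 4.67e-05). The feedback inhibitors Cish and Socs1 were at 9.61, 6.27 and 6.03 and 37.1, 32.8 and 35.98 in miR-23 Tg, against 25.5, 19.6 and 12.5 and 60.1, 61.6 and 73.2 in miR-27 Tg (1.25 and 1.52 for Cish and 0.86 and 0.77 for Socs1). The list's lower members were Ifngr1 and Tgfbr1. Socs1 was not called without miR-23 Tg column 3 (adjusted p = 0.05702). Of 20 homing genes, 5 were higher, among them S1pr4, a receptor for the lipid that guides lymphocyte egress, at 55.5, 67.98 and 65.3 against 117, 121 and 178 (1.11 and 0.92, adjusted p = 0.00103 and 0.00159). Ccr9, the gut-homing receptor, was the only lower member of that list, at 4.705, 8.44 and 8.35 against 1.99, 1.204 and 0.5397 (-1.88 and -1.63, adjusted p = 0.00171 and 0.005105). The calls of the cytokine receptor list went from 8 to 5 without miR-23 Tg column 3, and those of the homing list from 7 to 4 without miR-23 Tg replicate 1.

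Cell cycle genes had 13 higher and 0 lower members of 33, against 6.87% and 5.02% of all genes, with a median of 0.49 and 0.38. The proliferation antigen Mki67 was at 1.72, 2.16 and 1.78 RPKM against 6.75, 9.03 and 4.65 (1.40 and 1.61, SE 0.34 and 0.37, adjusted p = 0.0135 and 0.00939), the cyclin Ccnb2 at 1.42, 1.93 and 1.44 against 4.43, 6.197 and 8.99 (1.5 and 1.27, adjusted p = 0.00305 and 0.00912) and the nucleotide enzyme Rrm2 at 3.05, 3.25 and 3.19 against 8.95, 9.93 and 11.3 (1.40 and 1.32, adjusted p = 0.00361 and 0.00947). The transcription factor E2f2 was at 4.52, 6.098 and 4.45 against 13.2, 19.3 and 23.9 (1.69 and 1.5, adjusted p = 6.01e-05 and 9.94e-05). The levels were low in both genotypes and the ranges of these 4 did not overlap. Of 28 apoptosis genes, 2 were higher, among them Bak1, and 3 lower (Bid, Birc3 and Fasl), against the same 6.87% and 5.02%. Bid, which links death receptors to mitochondria, was at 7.57, 8.36 and 8.67 against 5.85, 5.59 and 5.39 (-0.47 and -0.45, adjusted p = 0.00235 and 0.00297) and at 12.5 ± 0.748 in WT, above both transgenics. Cell cycle calls changed, with miR-27 Tg replicate 3 already left out, from 14 to 9 without miR-23 Tg replicate 1, 6 without miR-27 Tg replicate 1 and 3 without replicate 2, and apoptosis calls from 8 to 4 without miR-23 Tg replicate 1 and 5 without column 4.

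Of 22 glycolysis genes, 2 were higher (Aldoc and Ldhb) and 1 lower, against 6.87% and 5.02% of all genes. Pdk1, a kinase that inhibits pyruvate dehydrogenase, was the lower member, at 96.3, 107 and 109 RPKM against 40.1, 32.5 and 26.8 (-1.64 and -1.50, SE 0.13 and 0.12, adjusted p = 6.68e-06 and 5.58e-06). Of 22 cholesterol biosynthesis genes, 5 were higher and 0 lower, against 6.87% and 5.02% of all genes, among them Sqle at 8.87, 8.33 and 7.46 against 14.6, 14.6 and 20.1 (0.91 and 0.76, adjusted p = 0.00487 and 0.0131) and Fdps at 9.92, 10.9 and 10.9 against 17.95, 18.8 and 44.1 (1.15 and 0.75, adjusted p = 0.01004 and 0.0106), with replicate 3 the highest. Glycolysis calls went from 6 to 2 without miR-23 Tg replicate 1 and 2 without column 4, and cholesterol calls from 7 to 4 without miR-23 Tg replicate 1, 4 without column 3 and 4 without column 4. Ldhb was not called without miR-23 Tg replicate 1, column 3 or column 4 (adjusted p = 0.0969, 0.0716 and 0.0699). Of 71 ribosomal protein genes 1 was called both ways, and of 73 respiratory chain subunits 0. For the respiratory list, limma gave 1 call with all libraries and 0 without replicate 3, and at an unadjusted p under 0.05 it gave 9 higher and 1 lower with all and 1 higher and 3 lower without. Respiratory calls with all libraries went from 1 to 6 without miR-27 Tg replicate 1 and 7 without replicate 2. The median of the ribosomal list was 0.33 with all libraries and -0.27 without miR-27 Tg replicate 3, and that of the respiratory list 0.53 and -0.01. The members above 0 numbered 62 of 71 and 71 of 73 with all libraries, and 12 and 35 without it, so the direction of both lists rested on that library.

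**Figure D4:**
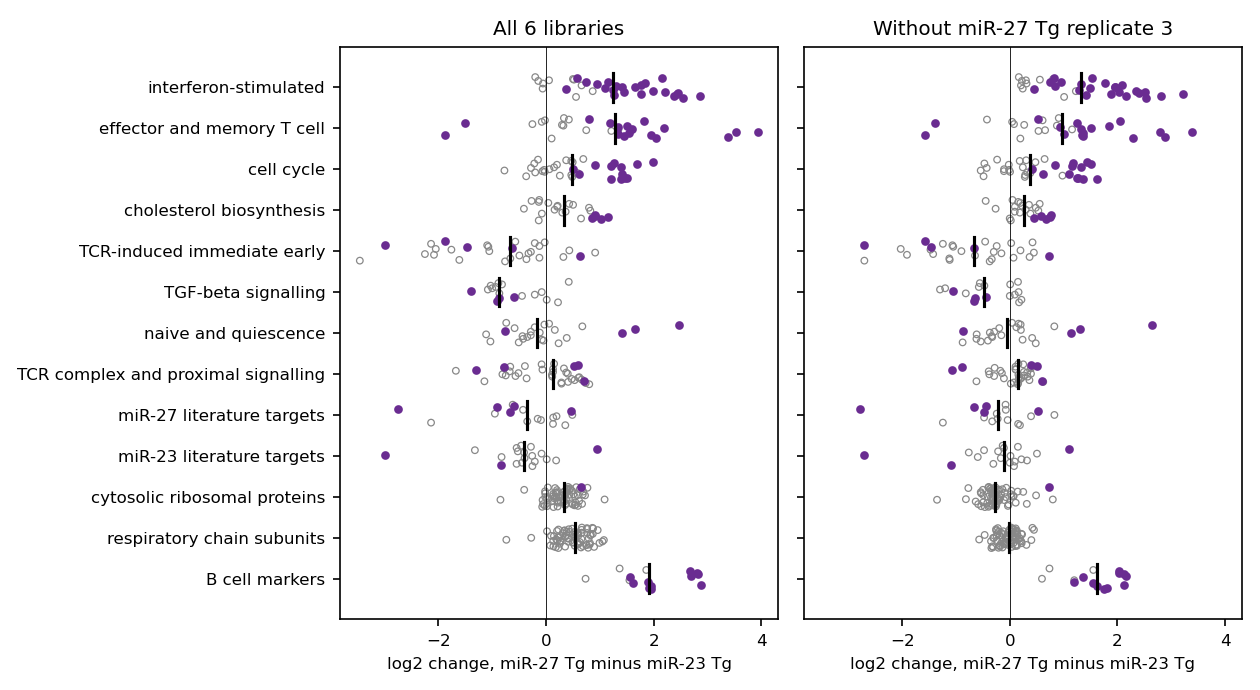
Log2 difference, miR-27 Tg minus miR-23 Tg, of each tested member of 13 gene lists with all 6 libraries (left) and without miR-27 Tg replicate 3 (right). Filled points were called both ways, open points were not, and black bars are medians, which cross 0 between the panels for ribosomal proteins and respiratory chain subunits.

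Of 17 tested literature targets of miR-27, 4 were lower (Map2k4, Smad2, Tgfbr1 and Zbtb10) and 1 was higher in miR-27 Tg (Rxra), against 5.02% lower and 6.87% higher over all genes, with a median of -0.35 and -0.22. Map2k4, a kinase of the stress response, was at 27.9, 24.2 and 24.2 RPKM against 18.4, 17.5 and 11.8 (-0.67 and -0.48, SE 0.14 and 0.10, adjusted p = 0.005604 and 0.00492), and the nuclear receptor Rxra at 4.604, 4.65 and 4.75 against 7.28, 7.12 and 6.004 (0.46 and 0.53, adjusted p = 0.0114 and 0.004696). Bmi1, a Polycomb protein, was at 18.8, 19.2 and 19.01 against 21.6, 20.98 and 20.1 (0.13 and 0.16, adjusted p = 0.219 and 0.124), and the NF-kB subunit Rel at 78.02, 22.3 and 25.3 against 14.2, 14.6 and 1.401 (-2.14 and -1.24, adjusted p = 0.0568 and 0.1903), so neither was called. The ranges of both did not overlap: every miR-27 Tg library was under every miR-23 Tg library for Rel and above for Bmi1. For Rel, miR-23 Tg replicate 1 was the highest and miR-27 Tg replicate 3 the lowest library.

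Of 19 tested miR-23 targets, 1 was higher in miR-27 Tg, the direction of lower levels under miR-23, and 2 were lower. The shares of all genes were 6.87% and 5.02%. The higher gene was the cytoskeletal regulator Mtss1, at 21.2, 18.9 and 16.6 RPKM against 42.3, 41.2 and 29.2 (0.94 and 1.11, SE 0.18 and 0.18, adjusted p = 0.00388 and 0.00105), with 23.6 ± 1.95 in WT. The lower genes were Tnfaip3 and Ppif, the permeability pore regulator named above. Ppif was at 22.8, 19.1 and 19.6 in miR-23 Tg and 8.82, 9.44 and 15.6 in miR-27 Tg (-0.84 and -1.08, adjusted p = 0.00602 and 0.000154), and at 27.5 ± 1.43 in WT, so the miR-23 Tg libraries lay under the WT mean and the miR-27 Tg libraries lower still. Prdm1, a repressor of effector cells, was at 2.77, 1.78 and 1.87 against 2.2, 2.38 and 0.647, with -0.25 and 0.08, adjusted p = 0.409 and 0.764, and overlapped.

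Of 17 tested literature targets of miR-24, 2 were higher (Ccna2 and E2f2) and 1 lower (Fasl), against 6.87% and 5.02% of all genes. Their median was -0.07 and -0.06. The calls of the miR-23 targets went from 5 to 2 without miR-23 Tg replicate 1 and 8 without miR-27 Tg replicate 1.

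The proteins that make and use microRNAs were tested as well. Of 22 such genes, 2 were higher (Prkra and Tarbp2, which bind double-stranded RNA beside Dicer) and 1 lower (Cnot7, a deadenylase), with a median of -0.427 and -0.004. The shares of all genes were 6.87% higher and 5.02% lower. Tarbp2 was at 7.05, 8.36 and 7.85 RPKM against 9.83, 10.005 and 17.99 (0.59 and 0.32, adjusted p = 0.0266 and 0.0207), with replicate 3 the highest. Dicer1, which cuts the hairpin, was at 26.8, 26.3 and 26.3 against 20.3, 20.1 and 9.05 and was not called (-0.73 and -0.38, adjusted p = 0.05297 and 0.143), although its ranges did not overlap. It was called without miR-27 Tg replicate 1 or 2 (adjusted p = 0.0264 and 0.0287). Ago2, the protein that holds the mature strand, was at 45.9, 39.8 and 44.2 against 31.9, 39.6 and 1.54 (-1.56 and -0.28, adjusted p = 0.196 and 0.7796), so replicate 3 was far under both other miR-27 Tg libraries. The calls on this list went from 4 to 2 without miR-23 Tg replicate 1 and 2 without column 4. Tarbp2 was not called without miR-23 Tg replicate 1 or column 4 (adjusted p = 0.0998 and 0.0652).

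Seed matches were counted in the 3′ UTR of 9469 of the 10507 genes (90.1%), taken by symbol from GENCODE M21 (GRCm38), 1 transcript a gene. Of 1098 genes with a miR-27 match and no miR-23 match, 10.6% were lower and 5.37% higher in miR-27 Tg, against 4.44% and 7.49% of the 6983 genes with neither. With 2 or more miR-27 matches (145 genes) the shares were 16.6% and 2.76%. With a miR-23 match alone (1039 genes) 3.46% were lower and 6.64% higher, and 2 or more miR-23 matches (150 genes) gave 4.0% and 7.33%. The 349 genes with both matches had 7.16% lower and 4.01% higher, and 988 genes with a miR-24 match alone 4.55% and 7.09%. Over all matched genes the shares were 5.14% lower and 7.02% higher.

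**Figure D5:**
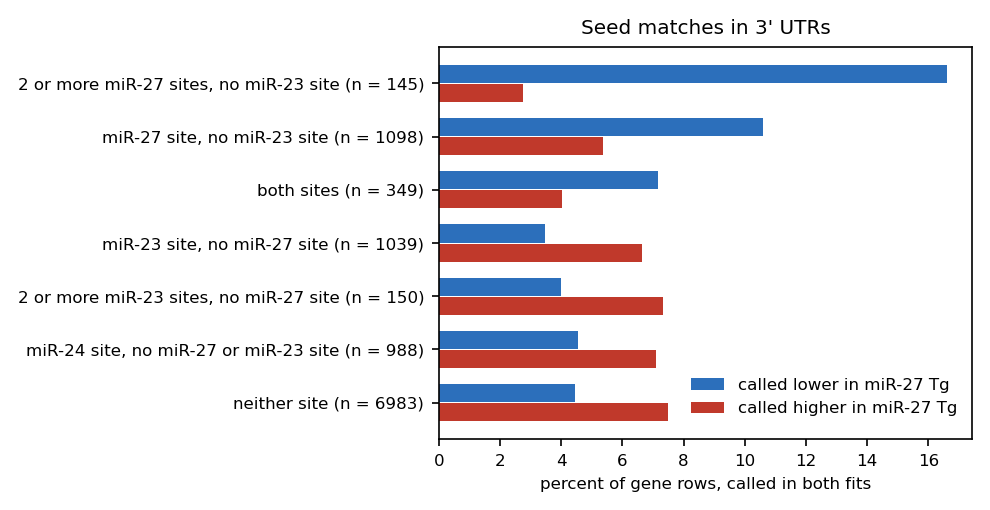
Percent of genes called lower (blue) and higher (red) in miR-27 Tg than in miR-23 Tg, by seed matches in the 3′ UTR, with the number of genes. The share of lower genes is 16.6% with 2 or more miR-27 matches, 10.6% with any miR-27 match and no miR-23 match, and 4.44% with neither.

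The medians of the same sets pointed the same way for miR-27. Those of genes with a miR-23 match alone did not lie above those of genes with neither. Genes with a miR-27 match alone had a median difference of -0.189 and -0.099, those with a miR-23 match alone -0.105 and 0.004, and those with neither 0.079 and 0.006. Longer 3′ UTRs went with lower values in miR-27 Tg replicate 3: over 3 classes of UTR length with equal numbers of genes (up to 535 bases, up to 1537 and above), the median of all genes was 0.217, -0.01 and -0.176 with all libraries and 0.008, -0.004 and -0.03 without it. Within these classes, 8.47%, 9.97% and 11.2% of genes with a miR-27 match alone were lower, against 2.17%, 4.4% and 3.18% of those with a miR-23 match alone and 2.69%, 5.4% and 6.21% of those with neither. Against WT, the median for the miR-27 match alone was -0.142 and -0.057 in miR-27 Tg, against 0.084 and 0.017 there for genes with neither. In the class of longest UTRs these were -0.176 and -0.033 against -0.055 and 0.046. The median for the miR-23 match alone was 0.024 in miR-23 Tg against WT, and 0.005 there for genes with neither.

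Of the named genes called both ways with a 3′ UTR, a miR-27 match was in 9 of 79 higher and 8 of 34 lower genes, and a miR-23 match in 10 higher and 9 lower genes. Of all 9469 genes with a 3′ UTR, 1098 held a miR-27 match alone, 1039 a miR-23 match alone and 349 both. Literature targets of these microRNAs are among the named genes, so these counts do not test the matches. Examples are printed in message sense, with the match in capitals, to show the 1-base difference between the classes. Those for miR-27 in lower genes lie in Tnfaip3 (chr10:19002654-19002683, minus strand), Tgfbr1 (chr4:47412328-47412357), Ppif (chr14:25700160-25700189) and, 2 times, Map2k4 (chr11:65690393-65690422 and chr11:65688623-65688652, minus strand). Those in higher genes lie in Ifit3 (chr19:34588449-34588478), Il10ra (chr9:45255409-45255438, minus strand), Cd5 (chr19:10718257-10718286, minus strand) and Rxra (chr2:27762789-27762818).
Tnfaip3, miR-27 match: ttcacagtggtACTGTGAtccagacccctg
Map2k4, first miR-27 match: tcaagttgttgACTGTGAttagatcacacc
Map2k4, second miR-27 match: agtgttcacaaACTGTGAaaatagtgtaag
Tgfbr1, miR-27 match: tcctttttatcACTGTGAtcatattctggg
Ppif, miR-27 match: ccctcctggtcACTGTGAatcctgctggct
Ifit3, miR-27 match: ctcagctctgtACTGTGAgacagatgtgct
Il10ra, miR-27 match: tctgcagacctACTGTGAccagctagccag
Cd5, miR-27 match: ctctaggagccACTGTGAccagtggggttg
Rxra, miR-27 match: gccggcctctgACTGTGAactgactcccca
Examples for miR-23 lie in Mtss1 (chr15:58941465-58941494, minus strand) and Igfbp4 (chr11:99051974-99052003), both lower in miR-23 Tg. Further examples lie in Tnfaip3 (chr10:19001046-19001075, minus strand) and, 2 times, in Ppif (chr14:25700258-25700287 and chr14:25700426-25700455), both higher in miR-23 Tg.
Mtss1, miR-23 match: aatgtagaaagAATGTGAcaaacaccttgg
Igfbp4, miR-23 match: tccgattgtagAATGTGAcgaggtgttctc
Tnfaip3, miR-23 match: ttttcattgttAATGTGAaatggttattta
Ppif, first miR-23 match: tctttctgctcAATGTGAattcccgtggtg
Ppif, second miR-23 match: tgttcatctcaAATGTGAtaaataaatcct
Of the 12 genes named for their negative differences, Tnfaip3 alone held a miR-27 match, and Zbtb10 held 1 miR-23 match and 0 for miR-27 in the transcript used.

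Markers of other cell types also differed, and the shares of all genes to compare were 6.87% higher and 5.02% lower. B cell markers had 11 higher and 0 lower members of 15 (median 1.91 and 1.62), and the sum of their RPKM was 34.8, 68.7 and 129.0 in miR-23 Tg and 188.3, 489.1 and 1132 in miR-27 Tg, against 23.9 to 36.3 in WT. That sum was 567.9, 146.1 and 187.7 in miR-24 Tg, 116.6, 100.9 and 194.7 in cluster Tg and 32.3 to 45.5 in DKO, so a raised sum was not particular to miR-27 Tg. The B cell receptor component Cd79b was at 1.12, 2.52 and 5.21 against 8.58, 24.6 and 74.1 (2.88 and 2.12, adjusted p = 0.00874 and 0.0239), while Ebf1 stayed under 1 RPKM in all 6 libraries. The sums did not overlap, but the highest miR-23 Tg and the lowest miR-27 Tg library lay close. The calls on this list went from 14 to 3 without miR-23 Tg replicate 1 and 9 without column 3, and, with miR-27 Tg replicate 3 already left out, from 11 to 0 without miR-23 Tg replicate 1, 1 without column 3 and 0 without miR-27 Tg replicate 2. Between miR-23 Tg column 4 and miR-27 Tg replicate 1, the closest pair across the genotypes by this sum, Ifit3 was at 6.25 against 60.7 and Cxcr3 at 1.76 against 17.8 RPKM. That pair is 1 library of each genotype, and both genes were highest in miR-27 Tg replicate 1. The part of B cells in the remaining results was not tested.

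CD8 T cell markers had 3 higher (Cd8a, Cd8b1 and Nkg7) and 2 lower (Ctsw and Crtam) of 7. Cd8a was at 0.258, 0.425 and 0.536 RPKM against 8.99, 3.76 and 4.99 (2.23 and 2.30, SE 0.32 and 0.36, adjusted p = 0.000459 and 0.0009299), Cd8b1 at 7.69, 11.8 and 11.5 against 41.2, 28.1 and 73.8 (2.01 and 1.65, adjusted p = 0.000432 and 0.000413) and Nkg7 at 2.604, 3.56 and 3.798 against 23.5, 11.97 and 67.7 (2.71 and 2.06, adjusted p = 0.00295 and 0.0049). Crtam, an adhesion molecule of cytotoxic cells, was at 5.87, 5.69 and 3.86 against 1.58, 1.19 and 1.805 (-1.27 and -1.35, adjusted p = 0.000474 and 0.000615). The members of the list thus went in both directions, and Cd8a stayed far under the Cd4 level in every library. Of 8 thymocyte genes, 4 were higher (Cd8a, Cd8b1, Dntt and Ikzf2) and 1 lower (Ccr9), and Cd8a and Cd8b1 stand on the CD8 list too. The terminal transferase Dntt was at 3.72, 4.63 and 4.66 against 17.5, 10.8 and 23.4 (1.72 and 1.47, adjusted p = 0.0002496 and 0.000376), while Rag1, Rag2 and Ptcra stayed under 1 RPKM.

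Of 3 tested NK cell markers, Tyrobp and Fcer1g were higher, and Ncr1, Klrb1c, Klra8, Klre1 and Klri2 stayed under 1 RPKM in all 6 libraries. Of 8 myeloid markers 3 were higher, led by the integrin Itgam at 1.17, 1.17 and 0.964 against 14.5, 11.3 and 4.29 (2.26 and 2.72, adjusted p = 0.000414 and 7.95e-06). Of the dendritic cell markers only Bst2, also an interferon-stimulated gene, passed the filter and was higher (1.30 and 0.83). NK calls changed from 2 to 1 without miR-23 Tg replicate 1. Tyrobp was not called without miR-23 Tg replicate 1 (adjusted p = 0.0554). Myeloid calls changed from 4 to 2 without miR-23 Tg replicate 1. Among 4 neutrophil and 1 erythroid markers tested, limma called 0 both ways, while at an unadjusted p under 0.05 it gave all 5 with all libraries and 2 neutrophil genes without replicate 3. The summed RPKM of the neutrophil list was at most 6.54 in miR-23 Tg, 14.2 and 37.8 in miR-27 Tg replicates 1 and 2 and 694.3 in replicate 3, and that of the erythroid list at most 13.0 in miR-23 Tg and 3.60, 291.1 and 525.8 in miR-27 Tg. Of 16 genes of the dissociation and heat stress list, 0 were called in either fit by limma, and 3 with all libraries and 3 without replicate 3 had an unadjusted p under 0.05, with a median of -0.15 and -0.04.

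Of the genes called with all libraries, those whose difference moved most on leaving out miR-27 Tg replicate 3 included the hairpins Mir27a (9.25 and 10.25) and Mir23a (-13.64 and -12.43) and 6 others. S100a8 and S100a9, the calprotectin subunits of neutrophils, were at 0, 0 and 2.498 and 0.499, 0 and 2.33 RPKM in miR-23 Tg and at 3.81, 11.7 and 284 and 6.34, 18.1 and 281 in miR-27 Tg. The haemoglobin chain Hbb-bt was at 0, 1.61 and 0.92 against 1.37, 52.5 and 69.4. These 3 lost their call without the library, with adjusted p of 0.0741, 0.0593 and 0.11003. On the lower side, the small nucleolar RNA Snora28 was at 1662, 1352 and 1126 against 412, 442 and 32.7, with -2.89 and -1.67, adjusted p = 0.0355 and 0.0963, and the hairpin Mir719 at 162, 179 and 95.7 against 0.0087, 99.3 and 0.0003, with -4.92 and -3.81, adjusted p = 0.0193 and 0.06199. L3mbtl3, a chromatin-binding protein, kept its call at a smaller difference, with 26.2, 21.7 and 22.01 against 15.6, 13.1 and 1.45 (-1.54 and -0.66, adjusted p = 0.0434 and 0.00991). None of these 6 others was called with miR-23 Tg replicate 1 left out (adjusted p = 0.063 to 0.131) or column 3 left out (adjusted p = 0.0573 to 0.0883).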

How the data were processed

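The authors deposited 1 table of RPKM values per gene and library for the 18 libraries of total RNA. Reads were aligned with STAR 2.2.0c to the mouse build mm9 and quantified with HOMER, tools that the submitters' processing notes name without further settings. Raw counts were not analysed here, so depth is known only relative to WT replicate 1, from the most common ratio between values under 0.1 RPKM in both libraries. Of 23953 rows, 2 repeat a symbol and the row with the higher mean was kept, and 25 symbols read as dates. No deposited column was left unused.

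Differences were computed here with limma 3.58.1 (R 4.3.3) on log2(RPKM + 1), the pseudocount being 1, with 1 mean per genotype and a variance trend. Residual degrees of freedom were 12, or 11 without miR-27 Tg replicate 3. Adjusted p-values are Benjamini-Hochberg over all 10507 genes that passed the filter. On simulated data with 10507 genes, 65% of 100 genes changed by 1 on the log2 scale and 23% of 100 changed by 0.5 were recovered with 1 false call, and 48% and 12% with 1 false call without that library. The simulation drew independent normal values with the same spread in every library. It held no outlying library and no batch, so its false calls do not give the error rate of these data.

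The genes compared and the 33 gene lists were chosen with earlier results of these data known. Genes were named by 1 rule: the 12 largest differences in each direction among genes called both ways with ranges that do not overlap, leaving out hairpins and the sex chromosome list and ordered by the difference without miR-27 Tg replicate 3, up to 4 called members of each list by size, literature targets of interest whatever their value, and, among genes called with all libraries, the 4 in each direction whose difference moved most on leaving out miR-27 Tg replicate 3. Added after their values were seen were Isg15, Usp18, Irf7, Irf9, Oas3, Ifit2, Irgm1, Lgals1, Gzma, Gzmk, Prf1, Ifngr1, Ebi3, Ccr7, Dusp6, Nfkbia, Sla2, Smad7, Socs1, S1pr4, Ccnb2, Rrm2, Dicer1, Ago2, Crtam, Dntt and the let-7 and other hairpins. Sequences and promoters are from RefSeq and 3′ UTRs from GENCODE M21, both on GRCm38, and were joined to the table by symbol only. Alternatives were another pseudocount, no filter, other scalings, array weights, only both genotypes in the fit, columns 3 and 4 averaged, and each library left out. A few genes are not reported here.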

Additional observations from a re-analysis of the deposited data

How the results depend on the processing

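The number of called genes stayed within 1.5 times of 1773 and of 1804 (without miR-27 Tg replicate 3) under a pseudocount of 0.1, no filter, quantile and median-ratio scaling. With only both genotypes in the fit it was 127, with array weights 4645 and 4670, with columns 3 and 4 averaged 1108, and with DKO replicate 3 left out 3178 (without miR-27 Tg replicate 3). Leaving out 1 of the compared libraries gave 946 to 2380, and 666 to 1427 without miR-27 Tg replicate 3, where 1 miR-27 Tg library can remain and is assumed to vary like the other groups. The cause was not tested. The share of calls that were higher was 64.5% with no filter, 48.7% with quantile scaling and 55% in the reported fit, all without miR-27 Tg replicate 3, and with all 6 libraries 72.4% with only both genotypes in the fit, 50.9% with median-ratio scaling and 54.8% in the reported fit. Of 1918 comparisons of the 137 named genes with another setting, 1649 kept direction and side of the threshold, 246 lost the call, 18 gained it and 5 changed sign, and without miR-27 Tg replicate 3 these were 1519, 236, 21 and 5 of 1781. Of the 246 lost calls, 95 came from the fit with only both genotypes and all 6 libraries. That fit called 7 interferon, 2 effector and memory and 3 cell cycle genes higher. It called 0 genes of the B cell, TGF-beta and cholesterol lists. Changes of sign were limited to genes not called: Prdm1 (0.19 with array weights, -0.44 to 0.079 on leaving out a library), Mir24-2 (1.34 with array weights, -3.23 to 0.62) and, without miR-27 Tg replicate 3, Gata3 (-0.069 to 0.45), Prdm1 (-0.037 with quantile scaling, -0.0016 to 0.22) and Mir24-2 (-1.08 with columns averaged, -1.56 to 2.00). Counts of list members moved by more than 1.5 times in 219 of 891 comparisons. No paired analysis was possible because the miR-23 Tg columns carry only 1 unambiguous replicate number. Depth is known only as a ratio between libraries, and the median SE over all genes was 0.2 and 0.156 on the log2 scale.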

Other observations

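Hairpins that belong to none of the transgenes also differed between the genotypes, and they are named here after their values were seen. Mirlet7a-1, a let-7 hairpin, was listed at 0 in the 3 miR-23 Tg and all WT libraries and stood at 93.0, 76.3 and 48.0 RPKM in miR-27 Tg. Mir29a was at 0, 0 and 36.7 RPKM in miR-23 Tg and at 504.9, 621.2 and 325.5 in miR-27 Tg. For both, every miR-27 Tg library lay above every miR-23 Tg library. The cluster Tg mean of Mirlet7a-1 was 82.6 ± 51.5 RPKM and its miR-24 Tg mean 68.0 ± 23.3 (SD, n = 3), so it was also present in the genotypes that fell on the same side of the second principal component. Mirlet7bhg, the host transcript of another let-7 cluster, was at 2.53, 2.84 and 2.56 RPKM in miR-23 Tg and 12.5, 15.8 and 45.1 in miR-27 Tg, a difference of 2.59 and 2.05 on the log2(RPKM + 1) scale (limma, adjusted p = 0.000414 and 0.000135). Mir6979 went the other way, at 689, 597 and 1363 RPKM in miR-23 Tg and listed at 0 in the 3 miR-27 Tg libraries. In the other genotypes, Mir29a was listed at 0 in all WT and DKO libraries and stood at 0, 42.3 and 0 RPKM in miR-24 Tg and 537.7, 286.0 and 84.4 in cluster Tg. Mir6979 was listed at 0 in all WT and DKO libraries and stood at 0, 3920 and 0 RPKM in miR-24 Tg and 553.8, 1178 and 0 in cluster Tg. Levels of these 2 hairpins thus did not split the genotypes as the second component did.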
